A study of Mus musculus with 14 samples.

Results

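CD200-CD105+ cells were compared with CD200+CD105- cells, both sorted from arthritic mouse knees, so that the surface phenotype was the labelled difference between the groups. Libraries were chosen by their group labels alone: 5 CD105+ libraries, numbered 10 to 14, and 5 CD200+ libraries, numbered 5 to 9, which are 10 of the 14 libraries of the series. The other 4 libraries, numbered 1 to 4, held CD200+CD105- cells of non-immunized mice and entered the fit as the third group. All mice were C57BL6 animals aged 16 weeks, and the labels name no transgene or mutant allele. Arthritic mice had been immunized with methylated bovine serum albumin in complete Freund's adjuvant and then received the same protein into the joint. Non-immunized mice received phosphate buffered saline instead. Harvest followed 10 days after the joint injection, and knee cells were freed with collagenase. Sorted cells were live and carried CD51, the integrin alpha V chain. They lacked TER119, CD31 and CD45, which mark red cells, endothelial cells and leukocytes in that order. Each library was made from 200 to 500 cells. The labels do not say whether libraries came from separate animals, or whether CD105+ and CD200+ cells came from the same knees. The p-values therefore measure the spread between these libraries, part of which may be technical.

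The series calls these cells osteoprogenitor populations of the synovium, the tissue that lines the joint. CD105, or endoglin, is a co-receptor of the TGF-beta family that is found on endothelial cells, on many stromal cells and on immature red cell precursors. CD200 is a surface glycoprotein that dampens myeloid cells through its receptor and marks some skeletal progenitors. Bone-forming cells arise under the transcription factors RUNX2 and osterix and lay down a collagen matrix that they mineralize. Red cell precursors arise under GATA1 and KLF1, depend on erythropoietin, divide several times while they load haem and globin, and lose their nucleus at the end. Runx2, Sp7 and Ibsp, genes of osteoblasts, were at or near 0 in all 5 CD105+ libraries, while globin and haem synthesis genes were abundant. Other skeletal or stromal genes were detected there, such as Bglap at up to 38.4 CPM, Col1a1 at 9.77 to 374 CPM and Prg4 at up to 5494 CPM. Runx2 and Sp7 also had no count in CD200+ library 5, nor Runx2 in CD200+ library 6. Whether the series' name holds for the CD105+ cells was not tested. The group is therefore called CD105+ cells here, by its sort, and no other cell type name is given to it.

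Counts on genes ranged from 2919666 to 18553803 per library over the series. Spike-ins took 38.6% ± 15.8 (SD, n = 5) of all counts in CD105+ libraries and 63.7% ± 24.0 (SD, n = 5) in CD200+ arthritic libraries, and over 80% in libraries 2, 5 and 6. Haemoglobin genes took 8.21% ± 5.98 of gene counts in CD105+ libraries and 0.224% ± 0.474 in CD200+ arthritic libraries. Mitochondrially encoded genes took 3.59% ± 0.945 and 6.52% ± 1.87. In both of these shares the 5 libraries of one group lay wholly apart from the other 5 (exact two-sided permutation test, p = 0.00794, the smallest that 5 against 5 allows; adjusted p = 0.0198 over 5 library measures). The spike-in share did not pass (exact permutation test, p = 0.111, adjusted p = 0.185). Values below are CPM, gene counts scaled to library size with TMM factors, given in the order of libraries 10 to 14 and 5 to 9. Because a library is a bulk of cells, fewer cells of a type and less RNA per cell cannot be told apart.

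The transcripts of the sort markers were read first. Cd200 (ENSMUSG00000022661, chromosome 16, 45382135 to 45409053, - strand) stood at 0, 0, 11.4, 0 and 0 CPM in CD105+ libraries and at 402, 541, 497, 318 and 334 CPM in CD200+ arthritic libraries. All its counts in the CD105+ group came from library 12, and the groups did not overlap. Its log2 change, CD105+ minus CD200+, was -7.50 (SE 1.67, adjusted p = 0.0123, edgeR quasi-likelihood test with Benjamini-Hochberg adjustment, used for every adjusted p of a gene below). Eng, which encodes CD105, was low in both groups, at 0, 9.02, 9.92, 2.95 and 11.1 CPM and at 0, 0, 1.35, 0.34 and 0.816 CPM. CD105+ library 10 held no Eng count, the groups overlapped, and the difference did not pass (log2 change 3.64, adjusted p = 0.17). Itgav, the chain of CD51, ranged from 0.888 to 23.9 CPM in CD105+ libraries and from 1.82 to 139.9 CPM in CD200+ arthritic libraries (adjusted p = 0.267). Thy1, which encodes the CD90 antigen stained in the sort, did not pass either (log2 change -0.17, adjusted p = 0.973). Of the markers used to discard cells, Pecam1 (CD31) stayed below 1 CPM in all 10 libraries. Ptprc (CD45) stood at 0, 17.3, 6.39, 8.47 and 2.21 CPM in CD105+ libraries and was detected in 1 of the 5 CD200+ arthritic libraries, with 1 count (adjusted p = 0.0684).

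**Figure D1:**
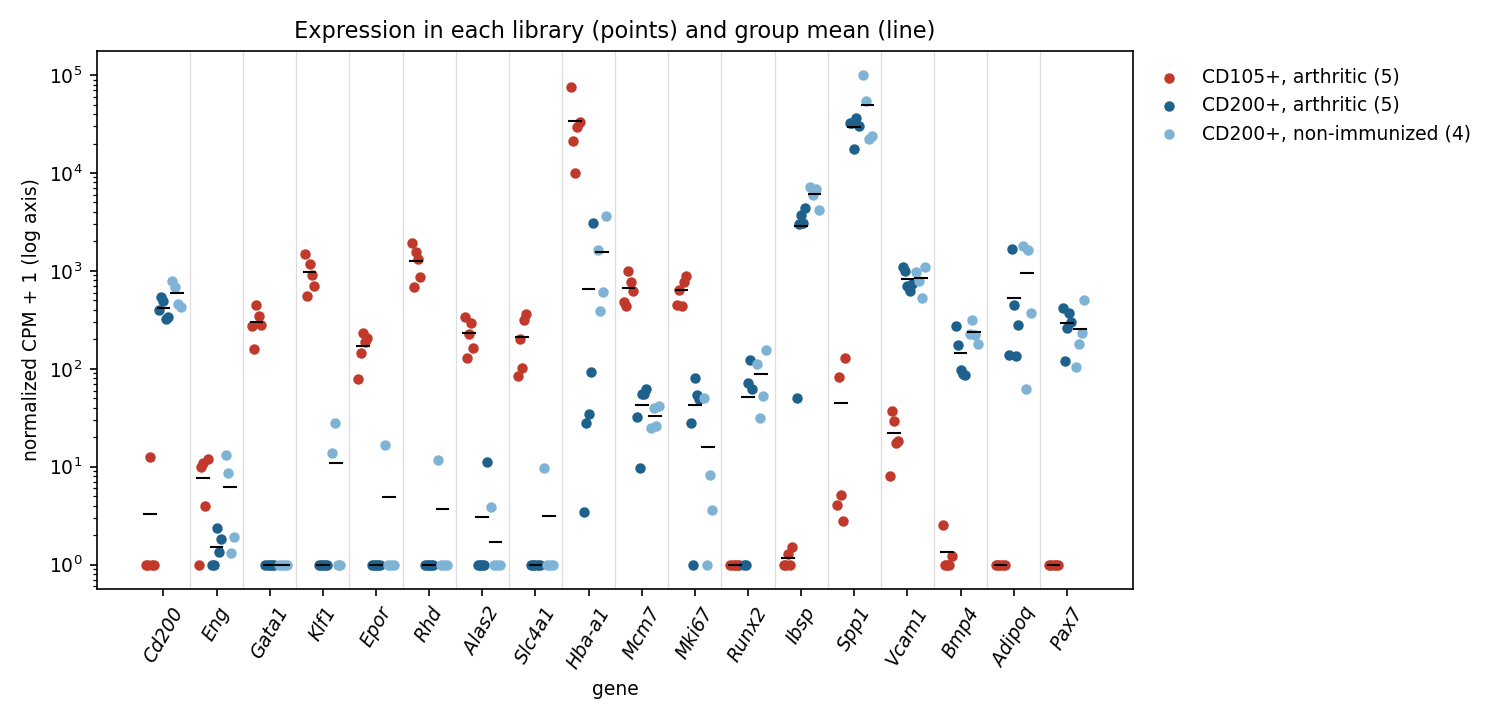
Normalized CPM plus 1, on a log axis, of 18 genes in each library, with 1 point per library and a line at each group mean. Red cell genes from Gata1 to Hba-a1 are high in all 5 CD105+ libraries, while Runx2 to Pax7 are at or near 0 there, except Spp1 and Vcam1 at up to 127 and 35.8 CPM.

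Over the whole transcriptome the phenotypes stood far apart. Of 15015 genes tested, 1692 passed an adjusted p of 0.05 (11.3%): 719 were higher in CD105+ cells (4.79%) and 973 were lower (6.48%). The groups did not overlap in 2518 genes (16.8%), of which 1568 were higher (10.4%) and 950 lower (6.33%). The first principal component held 30.4% of the variance and separated the CD105+ libraries, at 148 to 248, from all 9 CD200+ libraries, at -144 to -97.2. The second held 19.3% and divided the CD200+ arthritic group: libraries 5 and 6 lay at -219 and -285, and libraries 7 to 9 at 52.8 to 107. Libraries 5 and 6 had the fewest counts on genes in the series. They detected 10655 and 9772 genes, against 15018 to 18208 in libraries 7 to 9. The median log2 change over all genes tested was -0.05. Library sizes taken from the spike-ins instead shifted the median log2 change by 1.28 toward CD105+ cells, and then 412 genes were called higher and 158 lower. Changes are therefore given relative to this median gene. Among the genes tested, 361 had no count in any CD200+ arthritic library and 233 of these were called. Another 589 had none in any CD105+ library and 260 of these were called. A gene without counts in a group passed the filter only through other libraries. A called share above the 11.3% of all genes was therefore partly built in. The limma voom fit called 4525 of the same 15015 genes. DESeq2, run on all 25864 genes with a count and with its own filter, called 3565. Leaving out single libraries, with the genes filtered anew each time, left 1090 (without library 14) to 1713 (without library 6).

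**Figure D2:**
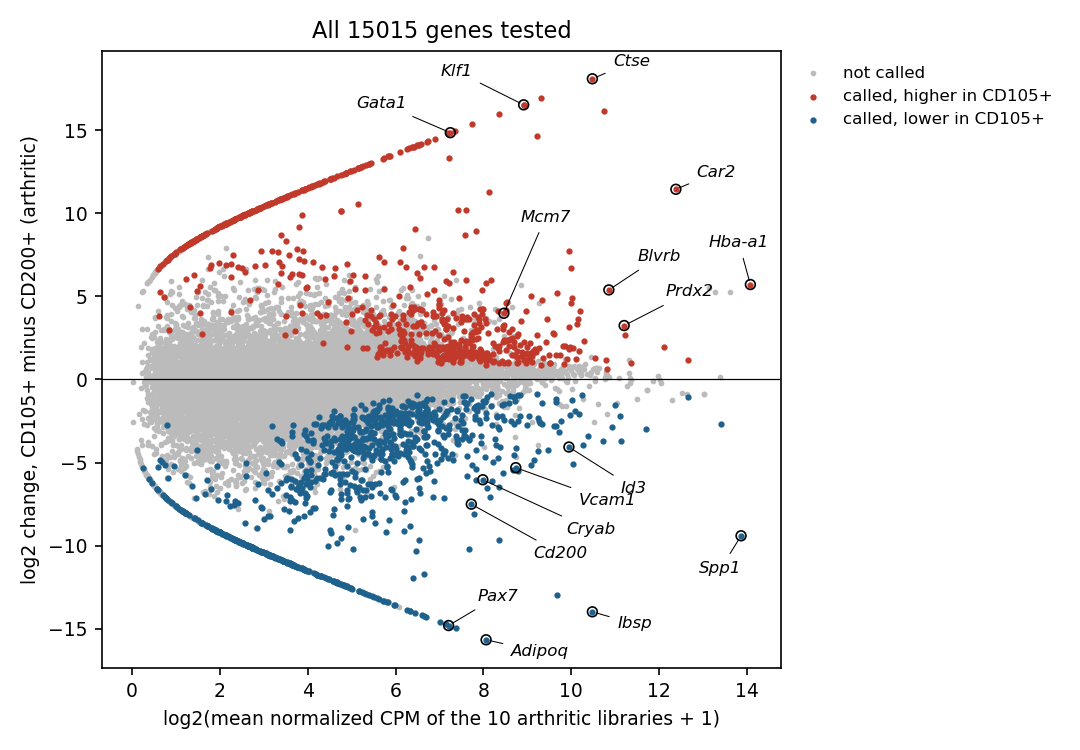
Log2 change, CD105+ minus CD200+ in arthritis, against the log2 mean CPM of the 10 arthritic libraries plus 1, for each of the 15015 genes tested; 719 red points were called higher and 973 blue points lower. The curved upper and lower edges are genes with no count in one of the groups, whose fitted change depends on the prior count of the fit, and 16 named genes are ringed.

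The 12 largest increases, among called genes with regular symbols, no overlap and at least 50 CPM, were led by red cell genes. Ctse (ENSMUSG00000004552, chromosome 1, 131638306 to 131675505, + strand), which encodes the aspartic protease cathepsin E, stood at 4659, 1273, 4306, 2164 and 1862 CPM in CD105+ libraries and had no count in CD200+ arthritic libraries, at least 49639-fold higher against a floor of 3 counts over the group without counts (adjusted p = 0.00779). Every fold given as "at least" uses this floor. Rhd (ENSMUSG00000028825, chromosome 4, 134864536 to 134896172, + strand), a Rh blood group protein, stood at 1922, 691, 1561, 1333 and 868 CPM against no count, at least 22185-fold higher (adjusted p = 0.00465). Car1, a carbonic anhydrase of red cells, stood at 7287, 2567, 1896, 2538 and 2779 CPM against 2 counts in CD200+ arthritic libraries, a ratio of 73889 (95% counting interval 20454 to 610127; adjusted p = 0.00186). The amino acid carrier Slc38a5, the membrane protein Tspo2, the claudin Cldn13, the carboxylesterase Ces2g and Nxpe2 followed, with group means of 653 ± 259, 324 ± 75.3, 1192 ± 284, 236 ± 127 and 428 ± 139 CPM (SD, n = 5). Each had at most 2 counts in the 5 CD200+ arthritic libraries. Klf1, Gata1 and Gfi1b are also among the 12. Each of these named genes kept its call in each of the 10 fits that left out a library. In non-immunized CD200+ library 1, Ctse, Rhd and Car1 stood at 40.1, 10.8 and 43.7 CPM. None of the 3 had a count in non-immunized libraries 2 to 4.

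The 12 largest decreases named stromal, muscle progenitor and bone genes, and 11 of them had no count in any CD105+ library. Adipoq (ENSMUSG00000022878, chromosome 16, 23146536 to 23158028, + strand), the adipocyte hormone that marrow stromal cells also make, stood at 137, 1663, 444, 134 and 281 CPM in CD200+ arthritic libraries, at least 11158-fold lower in CD105+ cells (adjusted p = 0.000855). Cavin2, a coat protein of caveolae, stood at 614, 227, 239, 253 and 309 CPM, at least 6888-fold lower (adjusted p = 4.14e-05). Pax7 (ENSMUSG00000028736, chromosome 4, 139737062 to 139833528, - strand), the transcription factor of muscle satellite cells, stood at 419.8, 119, 262, 367 and 299 CPM, at least 6157-fold lower (adjusted p = 4.14e-05). None of the 12 overlaps between groups, because no overlap was a condition for naming them. Cdh15 (the muscle cadherin), Chrnb1 (the beta subunit of the muscle acetylcholine receptor), Asb5, Heyl (a Notch target), Kng1 (kininogen), Ptprd (a receptor phosphatase), Clmn and Iqsec3 had CD200+ arthritic means from 112 to 258 CPM, and no count in CD105+ libraries. Ibsp, bone sialoprotein, is also among the 12, with 10 counts in the CD105+ group. All 12 kept their call in each fit that left out a library.

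The promoters of key red cell and bone genes are printed because their transcripts moved in opposite directions. Each comes from the 250 bases before the annotated start in RefSeq (GRCm38.p6), read along the gene, and bases that lie inside the gene as annotated by GENCODE are left out (54 for Klf1 and 42 for Alas2). Capitals mark GATA words, which are AGATAA or else AGATAG, and likewise TGATAA or else TGATAG, on either strand, and RUNX words, which are TGTGGT or else TGCGGT, on either strand, and no GATA word overlaps a RUNX word here.
Klf1 promoter (chr8:84901732-84901927, + strand): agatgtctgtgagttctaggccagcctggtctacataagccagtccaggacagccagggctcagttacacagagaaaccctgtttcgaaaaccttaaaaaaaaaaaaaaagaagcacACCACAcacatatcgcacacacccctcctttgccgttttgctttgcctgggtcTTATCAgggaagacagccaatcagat
Epor promoter (chr9:21963577-21963826, - strand): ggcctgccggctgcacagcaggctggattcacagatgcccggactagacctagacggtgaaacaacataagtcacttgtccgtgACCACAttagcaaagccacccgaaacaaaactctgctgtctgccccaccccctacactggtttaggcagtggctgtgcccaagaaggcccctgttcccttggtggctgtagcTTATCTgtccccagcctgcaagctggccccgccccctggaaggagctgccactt
Alas2 promoter (chrX:150547167-150547374, + strand): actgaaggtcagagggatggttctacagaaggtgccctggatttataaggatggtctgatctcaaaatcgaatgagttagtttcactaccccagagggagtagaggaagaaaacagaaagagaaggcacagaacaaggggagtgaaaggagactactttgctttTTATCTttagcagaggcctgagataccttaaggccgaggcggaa
Bglap promoter (chr3:88384467-88384716, - strand): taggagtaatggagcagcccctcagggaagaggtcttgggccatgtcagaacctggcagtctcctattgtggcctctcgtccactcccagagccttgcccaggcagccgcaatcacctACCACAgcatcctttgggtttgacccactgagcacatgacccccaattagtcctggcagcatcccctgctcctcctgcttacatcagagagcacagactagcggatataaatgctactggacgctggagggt
Klf1, Epor and Alas2 each held 1 GATA word and Bglap held none. Klf1, Epor and Bglap held 1 RUNX word each and Alas2 none. Promoters were found for 90 of the 113 red cell list genes, and 31 of them (34.4%) held a GATA word. The share was 13.6% (3 of 22) on the bone lists, 16.6% over 9919 tested genes and 27.1% over all 27025 promoters. RUNX words stood in 12.2% of red cell list promoters, 27.3% of bone list promoters (6 of 22), 17.3% over tested genes and 18.7% over all. Over all called genes with a promoter, a GATA word stood in 24.8% of those called higher and 15.0% of those called lower, and a RUNX word in 20.2% and 16.9%. A match is a string of letters in this window and not a bound site.

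**Figure D3:**
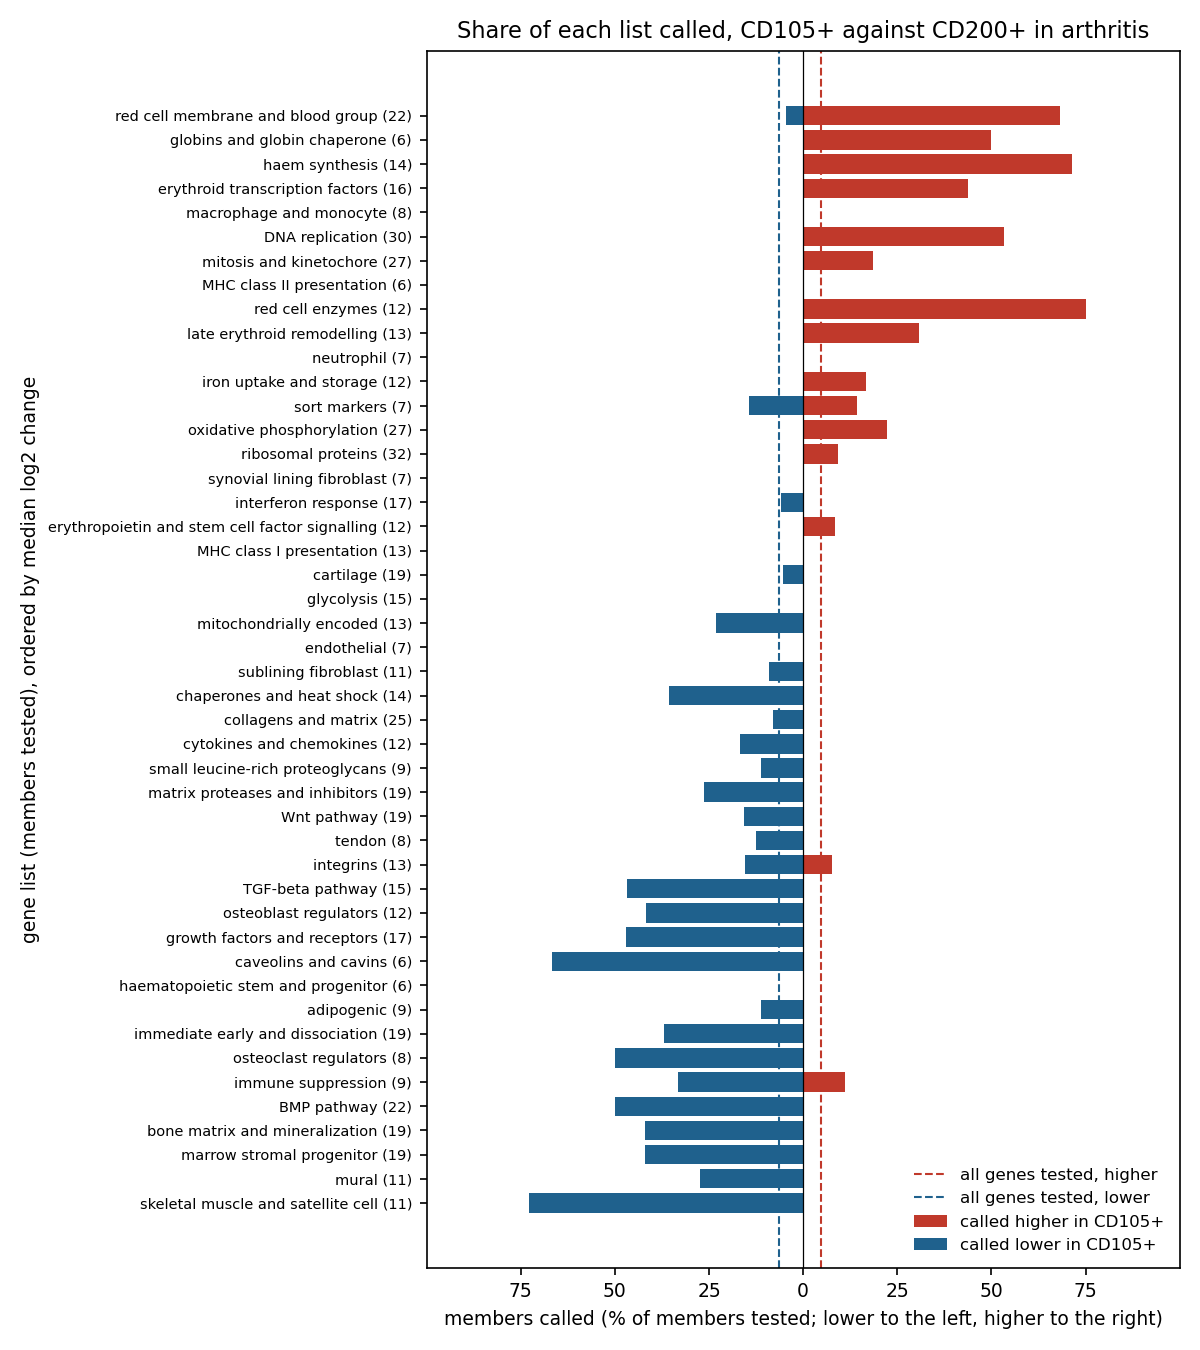
Share of the tested members of each gene list with at least 5 tested that was called higher (to the right) or lower (to the left) in CD105+ cells, ordered by median log2 change, with dashed lines at the 4.79% and 6.48% of all genes. Red cell, DNA replication and mitosis lists lie to the right, and bone, stromal, muscle, BMP and TGF-beta lists to the left.

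Gata1, Klf1 and Gfi1b, transcription factors of red cell development, were higher in CD105+ cells. Of 16 factors tested, 7 were called higher and 0 lower, against 4.79% and 6.48% of all genes, and the median log2 change was 4.06. Counts for the lists below are to be read against the same shares. For members that did not overlap, the shares over all genes were 10.4% higher and 6.33% lower. Gata1 (ENSMUSG00000031162, chromosome X, 7959260 to 7978071, - strand), the factor that drives most red cell genes, stood at 276, 159, 444, 348 and 281 CPM in CD105+ libraries and had no count in any of the 9 CD200+ libraries. It was at least 5247-fold higher (adjusted p = 0.000105). Klf1 (ENSMUSG00000054191, chromosome 8, 84901928 to 84905291, + strand), which switches on adult beta globin and membrane genes, stood at 1473, 559.6, 1172, 913 and 698 CPM and had no count in CD200+ arthritic libraries, at least 16761-fold higher (adjusted p = 0.00467). Both factors were present in every CD105+ library, the lowest being library 11. In non-immunized CD200+ libraries 1 to 4, Klf1 stood at 13.0, 27.0, 0 and 0 CPM. Gfi1b, a repressor needed for red cell and platelet formation, stood at 574, 165, 268, 267 and 184 CPM against none, at least 5076-fold higher (adjusted p = 0.000187). E2f4, a cell cycle factor of the list, had detectable levels in both, 159 ± 58.6 against 8.59 ± 8.37 CPM (SD, n = 5; log2 change 4.19, SE 1.06, adjusted p = 0.0219). The other 3 called were Tal1, Zfpm1 and Bcl11a. Summed over the list, CD105+ libraries held 1790.2 to 2866 CPM and CD200+ arthritic libraries 8.49 to 304 CPM.

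On the erythropoietin and stem cell factor list, Epor was the 1 gene called. Epor (ENSMUSG00000006235, chromosome 9, 21958897 to 21963506, - strand), the erythropoietin receptor, stood at 78.6, 144, 230.2, 187 and 207 CPM in CD105+ libraries and had no count in CD200+ arthritic libraries, at least 2946-fold higher (adjusted p = 0.0126). In non-immunized CD200+ libraries 1 to 4, Epor stood at 15.7, 0, 0 and 0 CPM. Of 12 genes tested, 1 was called higher and 0 lower (1 was called lower without library 11), against 4.79% and 6.48% of all genes. The median log2 change was 0.04. Kit, the stem cell factor receptor of earlier progenitors, stood at 3.99, 28.8, 16.8, 5.91 and 11.1 CPM against 0, 0, 16.0, 0 and 15.6 CPM and did not pass (log2 change 1.07, adjusted p = 0.755). The groups overlap for Kit. Socs3, a feedback inhibitor of cytokine receptors, had means of 6.15 ± 8.29 and 89.7 ± 56.0 CPM, with no overlap, and did not pass (log2 change -3.86, adjusted p = 0.0557). Kitl, the stem cell factor itself, belonged to the CD200+ libraries and is given with the stromal genes.

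Alad, Urod, Fech and Alas2, enzymes of haem synthesis, were higher in CD105+ cells. Of 14 genes of the pathway tested, 10 were called higher and 0 lower, against 4.79% and 6.48% of all genes. Between groups 13 did not overlap, all of them higher, against 10.4% of all genes. The median log2 change was 4.59. Alad (ENSMUSG00000028393, chromosome 4, 62509169 to 62519918, - strand), the second enzyme of the pathway, stood at 2842, 901, 1166, 1814 and 1179 CPM in CD105+ libraries and at 15.3, 61.6, 32.2, 54.9 and 53.8 CPM in CD200+ arthritic libraries. The log2 change was 5.18 (SE 0.45, adjusted p = 4.14e-05). Tmem14c, which helps carry the haem precursor into mitochondria, had a log2 change of 4.60 (SE 0.51, adjusted p = 0.000147). Urod, which acts midway in the pathway, had one of 4.12 (adjusted p = 0.000855), and Fech, which inserts the iron, one of 3.29 (adjusted p = 0.000322). For these 4 genes the lowest CD105+ library lay above the highest CD200+ library. Alas2 (ENSMUSG00000025270, chromosome X, 150547375 to 150570638, + strand), the red cell form of the first and rate-limiting enzyme, stood at 338, 129, 225, 294 and 161 CPM in CD105+ libraries and at 0, 0, 0, 0 and 10.2 CPM in CD200+ arthritic libraries. Library 9 was the 1 CD200+ arthritic library with Alas2 counts (log2 change 6.74, SE 1.99, adjusted p = 0.0433). The Alas2 call was lost without any 1 of libraries 5, 6, 7, 8, 10, 11, 12, 13 and 14, at adjusted p up to 0.0756. The Alas2 call was also lost with spike-in library sizes, in the fit with no filter, and without libraries 2, 5 and 6.

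Globin transcripts were abundant in all CD105+ libraries but varied widely among them. Of 6 globin genes tested, 3 were called higher and 0 lower, against 4.79% and 6.48% of all genes. In 5 the groups did not overlap, all of them higher, against 10.4% of all genes. The median log2 change was 5.62. Hba-a1 (ENSMUSG00000069919, chromosome 11, 32283511 to 32284465, + strand), an adult alpha globin gene, stood at 75211, 21161, 10014, 29412 and 33509 CPM in CD105+ libraries and at 2.42, 27.3, 33.4, 90.8 and 3080.0 CPM in CD200+ arthritic libraries (log2 change 5.71, SE 1.62, adjusted p = 0.0369). Library 10 was the highest and, among the CD200+ arthritic libraries, library 9 stood far above the other 4. Non-immunized CD200+ libraries 1 to 4 held Hba-a1 at 1636, 388, 603 and 3617 CPM. Hbb-bs, an adult beta globin gene, stood at 59259, 9194, 3809.6, 9983 and 13602 CPM and 0, 2.43, 30.5, 51.2 and 2403 CPM and did not pass (log2 change 5.27, adjusted p = 0.0845). Hba-a2 did not pass either (log2 change 5.27, adjusted p = 0.0503). Hbq1b, a minor alpha-like globin, stood at 108, 28.8, 18.7, 63.6 and 62.6 CPM against no count (adjusted p = 0.0171). Hba-a1 and Hba-a2 are near-identical copies, as are the minor genes Hbq1a and Hbq1b and the adult beta genes, so the split of reads within each pair is uncertain. Without any 1 of libraries 6, 7, 8, 10, 13 and 14, Hba-a1 lost its call (adjusted p up to 0.0698) and 1 globin gene remained called, while without library 9 there were 5. Without libraries 2, 5 and 6, or with spike-in library sizes, 1 was called.

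Membrane skeleton and blood group genes had a median log2 change of 7.81. Of 22 tested, 15 were called higher and 1 lower, against 4.79% and 6.48% of all genes. In 19 the groups did not overlap, all of them higher, against 10.4% of all genes. Slc4a1 (ENSMUSG00000006574, chromosome 11, 102348824 to 102366203, - strand), the anion exchanger band 3, stood at 83.4, 200.1, 102, 312 and 359.7 CPM in CD105+ libraries and had no count in CD200+ arthritic libraries, at least 3679-fold higher (adjusted p = 0.0091). Rhag, the partner of the Rh proteins, stood at 865, 294, 870.1, 396 and 353 CPM against 0, 0, 0.902, 0 and 0 CPM (log2 change 11.26, SE 1.33, adjusted p = 0.000594). Xk, the carrier of the Kx antigen, stood at 33.1, 43.8, 59.1, 38.9 and 48.5 CPM against none (adjusted p = 0.00666). The spectrin Sptb, Epb41, Epb42, Gypc, Kel, Ermap, Icam4 and Cd24a were also called higher. The member called lower was the laminin-binding adhesion molecule Bcam, whose call was lost without any 1 of libraries 7 to 14. The list summed to 5375 to 9269 CPM in CD105+ libraries and to 214 to 282 CPM in CD200+ arthritic libraries.

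Of 12 soluble red cell enzymes tested, 9 were called higher and 0 lower, and all 12 had a positive estimate (median log2 change 3.38). Car2 (ENSMUSG00000027562, chromosome 3, 14886273 to 14900770, + strand), a carbonic anhydrase of red cells and osteoclasts, stood at 19653, 6194, 9532, 10709 and 7158 CPM in CD105+ libraries and at 0.604, 0, 6.09, 5.44 and 6.28 CPM in CD200+ arthritic libraries (log2 change 11.44, SE 1.38, adjusted p = 0.000225). Blvrb (ENSMUSG00000040466, chromosome 7, 27447978 to 27466144, + strand), biliverdin reductase B, stood at 6500.4, 2247, 2262, 3519.7 and 3535 CPM and 74.9, 171, 41.3, 82.2 and 63.1 CPM (log2 change 5.39, SE 0.49, adjusted p = 4.41e-05). The peroxidase Prdx2 and the iron-sulphur factor Glrx5 were present in both groups, with log2 changes of 3.24 (adjusted p = 0.000115) and 3.36 (adjusted p = 0.000181). Of 13 genes of late remodelling, when organelles and proteins are cleared, 4 were called higher and 0 lower. Trim10 stood at 205, 81.5, 192, 136 and 143 CPM against no count in any of the 9 CD200+ libraries (adjusted p = 0.000187). Bnip3l, which marks mitochondria for removal, was present in both groups, with a log2 change of 1.80 (SE 0.33, adjusted p = 0.00441). The exonuclease Isg20 and the ubiquitin ligase Mkrn1 had log2 changes of 5.99 (adjusted p = 0.0155) and 3.20 (adjusted p = 0.0273). Mkrn1 lost its call without library 7 or 14 (adjusted p up to 0.0592), and with spike-in library sizes 2 of the 13 were called. Of the iron genes, the ferritin chains Ftl1 (log2 change 1.98, SE 0.35, adjusted p = 0.00345) and Fth1 (1.14, SE 0.28, adjusted p = 0.0206) were the 2 of 12 called. Fth1 lost its call without library 10 (adjusted p = 0.0536), and with spike-in library sizes 1 of the 12 was called. Tfrc, the transferrin receptor, stood at 303, 628, 602, 521 and 856 CPM against 42.9, 0, 70.2, 13.3 and 29.6 CPM, with no overlap, and missed the threshold (log2 change 4.22, adjusted p = 0.0511).

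Of the DNA replication genes, 16 were higher in CD105+ cells. All 30 tested had a positive estimate and 0 were called lower (median log2 change 3.86). Over all genes 4.79% were called higher. In 29 the groups did not overlap, against 10.4% of all genes that were higher without overlap. Mcm7 (ENSMUSG00000029730, chromosome 5, 138164583 to 138172422, - strand), a subunit of the replicative helicase, stood at 482, 439, 994, 769.7 and 628 CPM in CD105+ libraries and at 31.2, 8.79, 53.8, 53.8 and 61.5 CPM in CD200+ arthritic libraries (log2 change 3.98, SE 0.48, adjusted p = 0.00021). Pcna, the sliding clamp of the polymerases, stood at 2017, 1027, 890.1, 1214 and 1612 CPM and 293, 113, 158, 265 and 195 CPM (log2 change 2.72, SE 0.36, adjusted p = 0.000436). Rrm1, of the ribonucleotide reductase, and Dut, which keeps uracil out of DNA, had log2 changes of 4.65 (adjusted p = 0.000587) and 4.13 (adjusted p = 0.000429). Mcm5 missed the threshold with the groups apart, at 233, 523, 984, 639 and 664 CPM against 0, 0, 47.7, 127 and 65.5 CPM (log2 change 3.66, adjusted p = 0.0791). The list summed to 9686 to 15124 CPM in CD105+ libraries and to 501 to 1668 CPM in CD200+ arthritic libraries. The number called fell by more than 1.5 times without library 9, 12, 13 or 14, to 9 without library 14, and 9 were called with spike-in library sizes.

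Of the mitosis and kinetochore genes, 5 were higher in CD105+ cells. All 27 tested had a positive estimate and 0 were called lower (median log2 change 3.70). Over all genes 4.79% were called higher. In 25 the groups did not overlap, against 10.4% of all genes that were higher without overlap. Mad2l1, of the spindle checkpoint, stood at 484, 207, 217, 261 and 246 CPM against a mean of 33.6 ± 16.3 CPM (SD, n = 5; log2 change 3.07, SE 0.53, adjusted p = 0.00289). The kinase Ttk stood at 21.3, 22.3, 28.0, 37.4 and 26.1 CPM against 0, 0, 0, 0.612 and 0.942 CPM (adjusted p = 0.0246). Aurka, the Aurora A kinase, and Cenpa, the histone of the centromere, had adjusted p of 0.0425 and 0.0332, and Nusap1 was the fifth called. Mki67 (ENSMUSG00000031004, chromosome 7, 135689784 to 135716361, - strand), the proliferation antigen Ki-67, stood at 448, 633, 439, 765 and 893 CPM against 26.8, 0, 80.3, 52.5 and 47.9 CPM. It missed the threshold although the groups did not overlap (log2 change 3.93, SE 1.28, adjusted p = 0.0625). The count of 5 fell to 1 without library 13 or 14 and moved by over 1.5 times without any 1 of libraries 7 to 14. Ttk (adjusted p up to 0.0555), Cenpa (up to 0.067) and Aurka (up to 0.0914) were among those lost. The limma voom fit called 23, DESeq2 11, and the fit with spike-in library sizes 2.

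**Figure D4:**
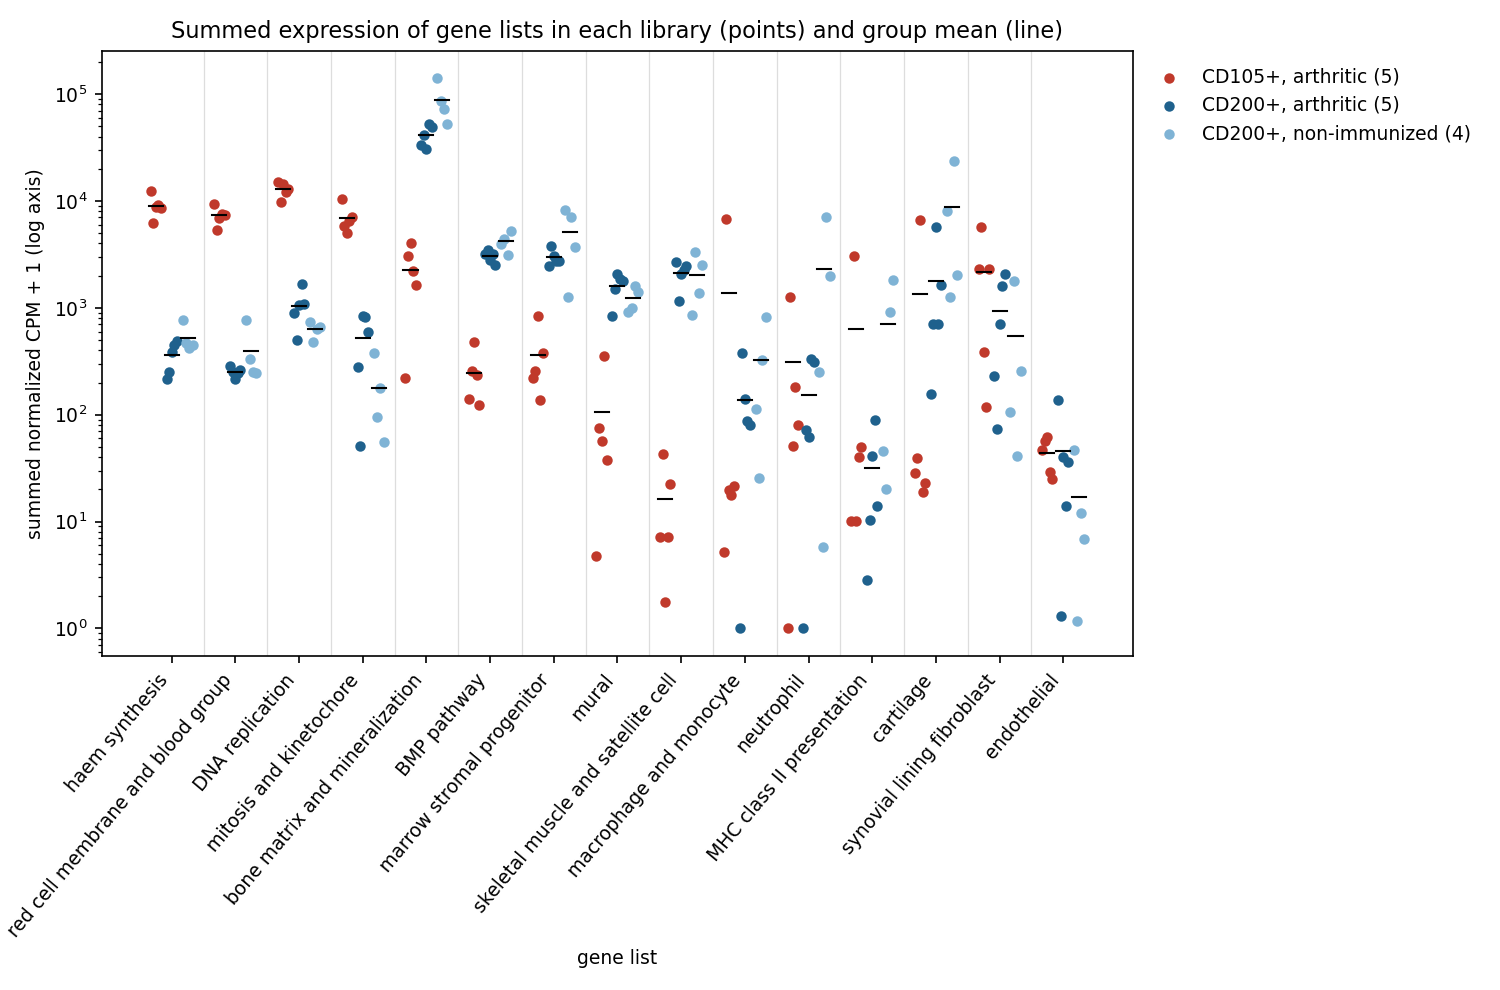
Summed CPM plus 1, on a log axis, of the members of 15 gene lists in each library, with 1 point per library and a line at each group mean. Haem, membrane, replication and mitosis sums are above those of every CD200+ library in all 5 CD105+ libraries. Among the CD105+ libraries, library 11 alone is high in macrophage, neutrophil and MHC class II genes, and library 12 alone in cartilage genes.

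Among the CD105+ libraries, the macrophage, neutrophil and MHC class II sums were highest in library 11. Other genes of blood lineages did not follow library 11: Acp5, Gp9 and Lck were detected in all 5 CD105+ libraries and were lowest there. The osteoclast list summed to 352 to 554 CPM in CD105+ libraries and to 61.6 to 442 CPM in CD200+ arthritic libraries. The 15 macrophage and monocyte genes summed to 6829 CPM in library 11 and to 4.22 to 20.7 CPM in the other 4 CD105+ libraries, and edgeR called none of 8 tested (2 at an unadjusted p under 0.05, 2 by DESeq2 and 0 by limma voom). Lyz2, lysozyme, accounted for 4537 CPM in library 11, and Csf1r, the receptor of macrophage colony stimulating factor, stood at 0, 64.0, 0, 0 and 0 CPM over the 5 libraries. Cd68 stood at 4.22, 123, 0, 0 and 0.368 CPM. Library 11 also held the most MHC class II (3063 CPM, with Cd74 at 924 CPM) and neutrophil transcripts (1254 CPM, with S100a8 at 466 CPM). edgeR called none of 6 class II genes (2 at an unadjusted p under 0.05, 2 by DESeq2, 1 by limma voom) and none of 7 neutrophil genes (0 by each of the same 3 counts). The B cell gene Cd79a was detected in library 11 alone of the 10, at 12.1 CPM. Without library 11, 1468 genes were called over the transcriptome. Platelet lineage genes were mixed: Gp9, a platelet glycoprotein, stood at 31.1, 9.73, 74.8, 21.2 and 21.8 CPM against no count (adjusted p = 0.0286), while Itga2b and Pf4 did not pass (adjusted p = 0.647 and 0.952). The Gp9 call was lost without any 1 of libraries 7, 9, 10, 12 and 14. The kinase Lck was the 1 of 12 T and NK cell genes with enough counts to test; it stood at 11.3, 3.05, 13.8, 20.8 and 6.54 CPM against none (adjusted p = 0.0287) and was lost without any 1 of libraries 7, 9, 10, 13 and 14. Of the other 11 genes, 8 had no count in any CD105+ library. Acp5, the tartrate-resistant phosphatase of osteoclasts and some macrophages, stood at 474, 145, 476, 499 and 314 CPM against 0, 0, 4.06, 0 and 0.188 CPM (adjusted p = 0.0264) and was lost without library 8 or 9, or without libraries 2, 5 and 6. Early progenitor genes such as Cd34, Flt3 and Mpo formed a list of 11 that summed to 5.22 to 68.6 CPM in CD105+ libraries and to 86.0 to 379 CPM in CD200+ arthritic libraries, with none of 6 called by edgeR (3 at an unadjusted p under 0.05, 1 higher and 1 lower by DESeq2, 3 lower by limma voom). Itgb2, the leukocyte integrin beta chain, was higher at 9.99, 89.8, 12.7, 22.8 and 8.23 CPM against no count (adjusted p = 0.0264), and was not called without libraries 2, 5 and 6. Among the CD105+ libraries, the summed levels of the red cell transcription factor, haem synthesis, membrane and enzyme lists were lowest in library 11, whereas the globin sum was lowest in library 12. Without library 9 edgeR called 1 macrophage gene higher, and without library 7 it called 1 class II gene higher.

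Runx2 and Sp7, transcription factors of bone formation, were lower in CD105+ cells. Of 12 genes on the list of osteoblast regulators, 5 were called lower and 0 higher, against 6.48% and 4.79% of all genes. All 12 estimates were negative (median log2 change -2.65). Runx2 (ENSMUSG00000039153, chromosome 17, 44495987 to 44814797, - strand), the master regulator of osteoblasts, had no count in any CD105+ library. In CD200+ arthritic libraries it stood at 0, 0, 69.9, 123 and 61.6 CPM, so that libraries 5 and 6 overlapped with the CD105+ group at 0. It was at least 1069-fold lower in CD105+ cells (adjusted p = 0.0148). Sp7, osterix, stood at 0, 0, 0.763, 0 and 0 CPM and 0, 65.5, 26.5, 19.7 and 57.6 CPM (log2 change -7.73, SE 1.67, adjusted p = 0.0109). Cbfb, the partner of the RUNX proteins, stood at 0, 17.6, 0, 2.56 and 4.93 CPM against 117, 125, 122, 121 and 146 CPM (log2 change -4.63, adjusted p = 0.0219), and Fosl2 was also called. Cbfb lost its call without library 13 or 14 (adjusted p up to 0.0553), and the count of 5 fell to 3 without either. With spike-in library sizes 3 were called and 3 of the 12 estimates were positive.

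Bone matrix and mineralization genes were abundant in the CD200+ libraries. The list summed to 30806 to 52377 CPM in CD200+ arthritic libraries and to 217 to 4028 CPM in CD105+ libraries. Of 19 tested, 8 were called lower and 0 higher, against 6.48% and 4.79% of all genes. All 19 estimates were negative (median log2 change -4.09). Spp1 (ENSMUSG00000029304, chromosome 5, 104435118 to 104441050, + strand), osteopontin, stood at 32267, 32645, 17438, 36317 and 30028 CPM in CD200+ arthritic libraries and at 3.11, 81.9, 4.20, 1.82 and 127 CPM in CD105+ libraries (log2 change -9.41, SE 1.35, adjusted p = 0.000856). Ibsp (ENSMUSG00000029306, chromosome 5, 104299171 to 104311469, + strand) stood at 49.7, 2992, 3761, 3104 and 4356 CPM against 0, 0, 0.286, 0 and 0.515 CPM (log2 change -13.98, SE 1.45, adjusted p = 9.58e-05). Library 5 was the low one for Ibsp and still lay above every CD105+ library. Alpl, the tissue-nonspecific alkaline phosphatase that starts mineral deposition, stood at 19.9, 6.97, 162, 181 and 168 CPM against 0, 0, 0, 0.739 and 0 CPM (log2 change -9.17, adjusted p = 0.00215). Dmp1, a matrix protein of osteocytes, stood at 0, 264, 231, 216 and 279 CPM and had 3 counts in the CD105+ group (adjusted p = 0.00326). Bglap (ENSMUSG00000074483, chromosome 3, 88383501 to 88384464, - strand), osteocalcin, was detected in 4 of 5 CD105+ libraries, at 27.7, 23.9, 0, 3.01 and 38.4 CPM, against 26.2, 902, 612, 644 and 680.1 CPM (log2 change -4.95, SE 1.33, adjusted p = 0.0289). Libraries 10 and 14 lay above library 5 for Bglap, which has the near copy Bglap2, and its call was lost without library 10, 11 or 13 (adjusted p up to 0.0638). Col1a1, the main collagen of bone and of fibroblasts, stood at 9.77, 374, 148, 171 and 102 CPM against 32.0, 315, 383, 1262 and 2664 CPM and did not pass (log2 change -2.53, adjusted p = 0.102). Without libraries 2, 5 and 6 the list had 13 calls, and with spike-in library sizes 8, with 2 positive estimates. Bglap was not among the 8 called with spike-in library sizes, and limma voom did not call Bglap either.

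Cartilage and general matrix genes gave few calls in edgeR and more in other fits. The edgeR counts of 1 of 19 and 2 of 25 were near the 6.48% of all genes called lower. Of 19 cartilage genes 1 was called lower, Cytl1, with no CD105+ count against 0, 0, 101, 105 and 789.7 CPM (adjusted p = 0.0321); it was lost without any 1 of libraries 9 to 14, and the cartilage count ran from 0 to 3, moving by over 1.5 times without any 1 of libraries 5, 6 and 8 to 14. DESeq2 called 3 cartilage genes lower and limma voom 5. Col2a1, the cartilage collagen, stood at 0, 0, 4275, 0 and 0 CPM in CD105+ libraries and at 0, 119, 3112, 53.8 and 124 CPM in CD200+ arthritic libraries. All its CD105+ counts came from library 12, the difference did not pass (log2 change 0.33, adjusted p = 0.962), and without library 12 the estimate was -16.04. Sox9, the chondrocyte factor, had means of 1.46 ± 2.65 and 48.1 ± 48.1 CPM (adjusted p = 0.0751). Of 25 collagens and other matrix genes 2 were called lower: Tnc, tenascin C (log2 change -5.83, adjusted p = 0.0167), and the crosslinking enzyme Loxl1 (-2.81, adjusted p = 0.0433). Loxl1 lost its call without any 1 of libraries 5, 6, 7, 8, 9, 11, 12 and 14, and the count of 2 was 1 without library 7, 8, 9, 11 or 14. With spike-in library sizes 0 were called and 9 of the 25 estimates were positive, whereas 6 were called lower without libraries 2, 5 and 6, 7 by DESeq2 and 12 by limma voom. Of 9 small leucine-rich proteoglycans, Ogn was called, at 37.3, 29.4, 69.8, 21.6 and 10.4 CPM against 404, 211, 224, 218 and 97.8 CPM (log2 change -2.78, adjusted p = 0.00414). That list had 2 calls without library 5, 6 or 12, 2 by DESeq2, 5 by limma voom and 0 with spike-in library sizes.

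Of 19 matrix proteases and inhibitors tested, 5 were called lower and 0 higher (median log2 change -1.74). Mmp13 (ENSMUSG00000050578, chromosome 9, 7272514 to 7283331, + strand), the collagenase of bone and cartilage, stood at 583, 78.8, 1289, 2300.3 and 3912 CPM in CD200+ arthritic libraries and at 0, 0, 0, 0.341 and 0.515 CPM in CD105+ libraries (log2 change -12.96, SE 1.38, adjusted p = 0.000109). Ctsl, cathepsin L, was present in all 10 libraries, at 149, 229.7, 188, 66.2 and 175 CPM against 1201, 883, 439, 581 and 625 CPM (log2 change -2.20, adjusted p = 0.00254). Adamts5, an aggrecan-cleaving protease, stood at 0, 6.81, 11.5, 4.89 and 24.2 CPM against 338, 62.5, 138, 142 and 99.5 CPM (log2 change -4.03, adjusted p = 0.0145). Adamts2 and Timp2 were also called, and with spike-in library sizes 1 of the 19 was.

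Bmp4, Bmpr2, Id2 and Id3, of the BMP pathway that drives bone formation, were lower in CD105+ cells. Of 22 pathway genes tested, 11 were called lower and 0 higher, against 6.48% and 4.79% of all genes. All 22 estimates were negative. The median log2 change was -3.86, or -3.78 with the 2 genes that lacked counts in a group at their bound. Bmp4 (ENSMUSG00000021835, chromosome 14, 46383520 to 46390669, - strand), a secreted ligand, stood at 276, 173, 95.9, 86.7 and 85.5 CPM in CD200+ arthritic libraries and at 1.55, 0, 0, 0 and 0.221 CPM in CD105+ libraries (log2 change -9.12, SE 1.27, adjusted p = 0.000678). Bmpr2, the type II receptor, stood at 2.00, 18.4, 6.49, 13.5 and 8.46 CPM against 58.8, 125, 135, 109 and 134 CPM (log2 change -3.52, adjusted p = 0.00225). The target Id3 (ENSMUSG00000007872, chromosome 4, 136143497 to 136145755, + strand) stood at 69.5, 97.8, 273, 82.4 and 31.5 CPM against 1842, 2184, 1626, 2205 and 1436 CPM (log2 change -4.07, SE 0.52, adjusted p = 0.000361), and Id2 had a log2 change of -4.47 (adjusted p = 0.00229). The ligands Bmp2 and Bmp6, the receptor Bmpr1a, the effector Smad1, the target Id1 and the secreted antagonists Nog and Grem1 were the other genes called. The summed level was 122 to 477 CPM in CD105+ and 2504 to 3437 CPM in CD200+ arthritic libraries. With spike-in library sizes 1 of the 22 was called, and 2 estimates were positive; with RLE factors 1 was.

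The TGF-beta pathway, in which CD105 is a co-receptor, gave 7 genes lower and 0 higher of 15 tested (median log2 change -2.47). Over all genes 6.48% were called lower and 4.79% higher. Tgfbr3, betaglycan, the co-receptor related to endoglin, stood at 1.33, 29.0, 11.2, 6.65 and 18.5 CPM in CD105+ libraries and at 419, 117, 327, 243 and 211 CPM in CD200+ arthritic libraries (log2 change -4.30, SE 0.64, adjusted p = 0.00114). The latent binding proteins Ltbp3 and Ltbp4, which hold the ligand in the matrix, had log2 changes of -2.44 (adjusted p = 0.00236) and -4.75 (adjusted p = 0.00478). The receptors Tgfbr1 and Tgfbr2, the ligand Tgfb2 and Ltbp1 were also lower. None of the 15 was called with spike-in library sizes, where 4 estimates were positive.

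Of 19 Wnt pathway genes, 3 secreted inhibitors were called lower and 0 were called higher (median log2 change -1.94). Sfrp4 stood at 10.2, 55.9, 105, 20.2 and 21.8 CPM in CD105+ libraries and at 531, 281, 404, 668 and 369 CPM in CD200+ arthritic libraries (log2 change -3.40, SE 0.60, adjusted p = 0.00361). With spike-in library sizes Sfrp4 lost its call (adjusted p = 0.184), 2 of the 19 were called and 4 estimates were positive. Wif1 had no CD105+ count against 0, 199.8, 149, 44.9 and 77.0 CPM (adjusted p = 0.00434). Dkk1 had none against 0, 0, 29.8, 0 and 63.1 CPM (adjusted p = 0.0478), and its call was lost without any 1 of libraries 7 and 9 to 14. Growth factors and receptors gave 8 lower and 0 higher of 17 tested (median log2 change -2.75). Fgfr1 (ENSMUSG00000031565, chromosome 8, 25513654 to 25575718, + strand), a fibroblast growth factor receptor, stood at 3.33, 19.0, 15.3, 4.15 and 11.5 CPM against 254, 246, 362, 247 and 421 CPM (log2 change -4.84, SE 0.49, adjusted p = 8.18e-05). Igfbp5, a binding protein of insulin-like growth factors, had a log2 change of -2.53 (adjusted p = 0.0121). Egfr and Igf2 had log2 changes of -2.75 (adjusted p = 0.027) and -5.85 (adjusted p = 0.0349), and Fgfr2, Igf1r, Igfbp4 and Pdgfa were called too. Pdgfra, the platelet-derived growth factor receptor of fibroblasts, stood at 14.4, 43.9, 34.8, 9.20 and 30.1 CPM against 79.9, 16.4, 34.7, 12.0 and 37.6 CPM, and did not pass (log2 change -0.44, adjusted p = 0.811). The growth factor count fell to 2 without library 13 and to 0 with spike-in library sizes, and moved by over 1.5 times without library 7, 8, 9, 10, 12 or 14 as well. Igf2 was lost without any 1 of libraries 7, 8, 9, 10, 12, 13 and 14, and Egfr without 13 or 14.

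Vcam1, Kitl and Lepr, genes of the stroma that supports blood formation in marrow, were lower in CD105+ cells. Of 19 genes on that list tested, 8 were called lower and 0 higher, and 18 estimates were negative (median log2 change -4.46). Vcam1 (ENSMUSG00000027962, chromosome 3, 116109949 to 116129688, - strand), the adhesion molecule that holds blood progenitors, stood at 7.10, 35.8, 28.0, 16.3 and 17.2 CPM in CD105+ libraries and at 1086, 992, 705, 627 and 739 CPM in CD200+ arthritic libraries (log2 change -5.31, SE 0.43, adjusted p = 3.63e-05). Kitl, stem cell factor, stood at 0, 0, 0, 1.48 and 0 CPM against 48.7, 83.1, 89.7, 120.1 and 88.7 CPM (log2 change -7.97, adjusted p = 0.00453). Lepr, the leptin receptor that marks marrow stroma, stood at 0, 3.40, 0, 0 and 4.34 CPM against 57.8, 199.5, 287, 184 and 193 CPM (log2 change -6.84, adjusted p = 0.0121). These 3 genes did not overlap between groups. Cdh2, N-cadherin, had a log2 change of -7.11 (adjusted p = 0.00699), and Ebf3, Cdh11 and Pdpn completed the 8 with Adipoq. Cxcl12, the chemokine of the same cells, stood at 40.4, 35.1, 574, 20.5 and 109 CPM against 432, 548, 753, 982 and 701 CPM, with library 12 high, and did not pass (log2 change -2.13, adjusted p = 0.154). Scaling to spike-ins left 3 of the 19 called.

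Regulators of osteoclasts, the cells that resorb bone, gave 4 lower and 0 higher of 8 tested. Csf1, macrophage colony stimulating factor, stood at 3.55, 13.5, 1.53, 8.24 and 2.87 CPM in CD105+ libraries and at 40.7, 64.9, 95.2, 92.5 and 68.8 CPM in CD200+ arthritic libraries (log2 change -3.60, SE 0.69, adjusted p = 0.00595). Tnfsf11, or RANKL, had no CD105+ count and stood at 0, 0, 16.6, 18.2 and 32.7 CPM (adjusted p = 0.0389). Its decoy receptor Tnfrsf11b had no CD105+ count either and missed the threshold, at 0, 0, 20.8, 0 and 16.5 CPM (adjusted p = 0.0563). Il6 stood at 0, 0, 0.572, 0 and 0 CPM against 225, 0, 24.6, 34.3 and 6.47 CPM (adjusted p = 0.03), and its receptor chain Il6st had a log2 change of -2.63 (adjusted p = 0.0192). The count of 4 fell to 1 without library 14 and to 0 with spike-in library sizes, and moved by over 1.5 times without library 10, 11 or 13. Of the genes named, Tnfsf11 was lost without any 1 of libraries 7 to 14, Il6 without 5, 10, 11, 13 or 14, and Il6st without 14.

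Genes that dampen immune cells went both ways. Lgals1, galectin 1, stood at 130.1, 542, 144, 256 and 115 CPM in CD105+ libraries and at 1601, 3712, 3436, 2618 and 4222 CPM in CD200+ arthritic libraries (log2 change -3.72, SE 0.51, adjusted p = 0.000636). Lgals9 (ENSMUSG00000001123, chromosome 11, 78962974 to 78984946, - strand), galectin 9, went the other way, at 674, 336, 785, 576 and 462 CPM against 115, 116, 62.4, 33.1 and 21.7 CPM (log2 change 3.02, SE 0.56, adjusted p = 0.00478). Neither gene overlapped between groups. Of 9 tested on the list, 3 were lower (with Cd200 and Ptges) and 1 higher. Of 12 cytokines and chemokines 2 were called lower, Ccl19 (log2 change -5.66, adjusted p = 0.0139) and Cxcl14 (-4.47, adjusted p = 0.0109). Of 17 interferon response genes 1 was, Ifitm3 (-2.19, adjusted p = 0.00385), a share near the 6.48% of all genes called lower. None of 13 MHC class I genes was called by edgeR, DESeq2 or limma voom, and 0 had an unadjusted p under 0.05. Of these genes Lgals9 and Cd200 were still called with spike-in library sizes.

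Muscle satellite cell transcripts were present in every CD200+ arthritic library and nearly absent from the CD105+ ones. The list summed to 1164 to 2689 CPM in CD200+ arthritic libraries and to 0.763 to 41.8 CPM in CD105+ libraries. Of 11 tested, 8 were called lower and 0 higher (median log2 change -9.66). Beside Pax7 and Cdh15, Myf5 (ENSMUSG00000000435, chromosome 10, 107482908 to 107486134, - strand), an early myogenic factor, had no CD105+ count and stood at 141, 112, 109, 75.3 and 85.0 CPM, at least 2192-fold lower (adjusted p = 2.07e-05). Myod1 had 2 counts in the CD105+ group against 53.6, 167, 142, 171 and 305 CPM, a ratio CD200+ to CD105+ of 6075 (95% counting interval 1681 to 50168; adjusted p = 0.000127). Megf10, Myog, Chodl and Des were also called. Calcr, the calcitonin receptor of satellite cells and osteoclasts, had no CD105+ count against 442, 0, 62.9, 47.7 and 72.2 CPM (adjusted p = 0.00498). Pax7 and Myf5 were present in non-immunized CD200+ libraries too, at 102, 176, 231 and 502 CPM for Pax7 and 82.9, 167, 63.6 and 112 CPM for Myf5 in libraries 1 to 4.

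Mural cell genes, of the cells that wrap vessels, were lower in CD105+ cells for 3 of 11 tested, against 6.48% of all genes. None was called higher, and all 11 estimates were negative (median log2 change -4.58). Notch3 stood at 0, 0.597, 0, 4.83 and 0 CPM in CD105+ libraries and at 86.6, 47.3, 95.7, 108 and 109 CPM in CD200+ arthritic libraries (log2 change -6.29, SE 1.33, adjusted p = 0.00955). Des, desmin, which muscle shares, had a log2 change of -5.91 (adjusted p = 0.00844), and Tagln one of -5.01 (adjusted p = 0.0469). Acta2, smooth muscle actin, stood at 0, 8.60, 0, 152 and 0.588 CPM against 277, 799.7, 1037, 929 and 1077 CPM and did not pass (adjusted p = 0.0825). Library 13 was the high CD105+ library for Acta2. Tagln lost its call without any library but 13, and with spike-in library sizes none of the 11 was called. The endothelial list, of the cells that CD31 was used to discard, summed to 23.9 to 60.2 CPM in CD105+ libraries and 0.303 to 136 CPM in CD200+ arthritic libraries, with none of 7 called by edgeR or DESeq2, 0 at an unadjusted p under 0.05 and 1 called by limma voom. Of 6 caveolin and cavin genes 4 were lower, among them Cavin1 (log2 change -2.63, adjusted p = 0.00761) and Cavin3 (-2.44, adjusted p = 0.00326). The integrin beta 1 chain Itgb1, present in all 10 libraries, had a log2 change of -1.31 (SE 0.26, adjusted p = 0.00604). Scaling to spike-ins left 1 of the 6 caveolar genes called, and not Itgb1.

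No gene of the synovial lining passed the test. Prg4 (ENSMUSG00000006014, chromosome 1, 150449412 to 150466165, - strand), lubricin, the product of the lining layer, stood at 2148, 5494, 86.5, 29.7 and 2175 CPM in CD105+ libraries and at 0, 0, 652, 1320.2 and 1975 CPM in CD200+ arthritic libraries. The groups overlapped and the difference did not pass (log2 change 1.33, SE 1.75, adjusted p = 0.7). None of 7 lining genes was called by edgeR or DESeq2, 0 had an unadjusted p under 0.05, and limma voom called 1; of 11 sublining genes Cxcl14 was. Of 8 tendon genes 1 was called, the immediate early factor Egr1, and of 9 adipogenic genes 1, Adipoq. Over all genes 6.48% were called lower, so a single call in lists this short says little about the list. The tendon count was 2 without library 14, and the adipogenic count was up to 4 without library 11 or 13. All 7 lining estimates were positive with spike-in library sizes, against 4 before.

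Fosb, Jun, Ier2 and Egr1 were lower in CD105+ cells. They are immediate early genes, which cells switch on within minutes of handling or stimulation. Of 19 such genes tested, 7 were called lower and 0 higher, and all 19 estimates were negative (median log2 change -3.31). Fosb stood at 0.444, 31.9, 15.3, 10.8 and 11.1 CPM in CD105+ libraries and at 1583, 311, 486, 776 and 252 CPM in CD200+ arthritic libraries (log2 change -5.61, SE 0.90, adjusted p = 0.00198). Jun had a log2 change of -4.06 (adjusted p = 0.00374), Ier2 one of -3.82 (adjusted p = 0.00668) and Egr1 one of -5.09 (adjusted p = 0.0138). Of 14 chaperones 5 were lower. Cryab (ENSMUSG00000032060, chromosome 9, 50751325 to 50756636, + strand), the small heat shock protein alpha B crystallin, stood at 5.77, 11.6, 4.10, 8.75 and 7.50 CPM against 439, 395, 660.4, 318 and 677 CPM (log2 change -6.04, SE 0.43, adjusted p = 1.72e-05). Hspb1 and Hspa1a had log2 changes of -6.50 (adjusted p = 0.00133) and -4.15 (adjusted p = 0.00232). With spike-in library sizes 3 immediate early estimates were positive, and 1 of 19 immediate early genes and 3 of 14 chaperones were called.

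The number of ribosomal and mitochondrial genes called depended on the method. Of 32 ribosomal protein genes 3 were called higher, among them Rps2 (log2 change 1.30, SE 0.33, adjusted p = 0.0218), and the median log2 change was 0.49. Of 27 nuclear genes of oxidative phosphorylation 6 were higher, among them Cyc1 (1.50, SE 0.30, adjusted p = 0.00768) and Ndufa9 (1.55, SE 0.39, adjusted p = 0.0207). Of 13 mitochondrially encoded genes 3 were lower, among them mt-Cytb (-1.05, SE 0.29, adjusted p = 0.035). DESeq2 called 5 ribosomal, 9 oxidative phosphorylation and 5 mitochondrially encoded genes in the same directions, and limma voom called 12, 15 and 10. Without libraries 2, 5 and 6 the counts were 2, 7 and 7. These counts also depended on single libraries. The ribosomal count was 0 without library 9 or 14, and also moved by over 1.5 times without 7, 10 or 13. The oxidative phosphorylation count was 2 without library 9 or 10, and also moved by over 1.5 times without 7, 13 or 14. The mitochondrial count was 0 without any 1 of libraries 7, 9, 10, 11, 13 and 14, and also moved by over 1.5 times without 12. With spike-in library sizes none of the 3 lists had a call, and the mt-Cytb estimate was 0.06. None of 15 glycolysis genes was called by edgeR, with 7 at an unadjusted p under 0.05, 2 lower by DESeq2, and 2 higher and 5 lower by limma voom; up to 3 were called lower without library 6, 11 or 12.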

How the data were processed

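Sorted knee cells were profiled with SMART-Seq v4 amplification and Nextera XT libraries on a NextSeq 500, with ERCC spike-in RNAs, per the labels' protocols. The authors deposited a table of read counts per gene, not normalized, with 47821 rows, of which 92 were spike-ins and 47729 genes. Tools listed per the submitters' processing notes are HISAT2, StringTie, cutadapt and edgeR, with the build GRCm38 (mm10). Versions and the strand setting are not given in the sources used here. Reads of overlapping or antisense genes may be mixed. Amplified reads carry no molecular identifiers, so counting intervals and floors cover counting error only.

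Spike-in rows were left out of library sizes. Genes were kept by filterByExpr (minimum count 10), scaled by TMM and tested with edgeR 4.0.16 (robust quasi-likelihood fit of all 14 libraries in 3 groups, contrast CD105+ arthritic minus CD200+ arthritic, two-sided) in R 4.3.3, with Benjamini-Hochberg adjustment over all tested genes and a threshold of 0.05. The SE of a log2 change is its size divided by the square root of F. Library measures were compared by an exact permutation test (scipy 1.17.1). Alternatives were RLE factors, spike-in sizes, other filters and fits, DESeq2 1.42.0, limma 3.58.1, thinning, and leaving out libraries. Counts were also simulated from gene means over all 14 libraries, with the library sizes of the data. At each size of change, 50 of the more abundant genes were changed. Of genes changed by 2, 4, 6 and 8 on the log2 scale, 8%, 34%, 54% and 84% were recovered, with 4 false calls. Far fewer genes were changed than were called in the data, so these shares are not the power of this comparison. By a chi-square test of counts, no pair of libraries in a group agreed within sampling noise. Gene coordinates are from GENCODE vM21 (GRCm38).

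The members and the 52 gene lists (766 of 767 genes matched) were chosen with earlier results of these data known. Named genes were the 12 largest changes in each direction among called genes with a regular symbol, at least 50 CPM and no overlap, all sort markers, up to 4 members of each list by smallest p, and a set of defining markers. Some of these genes are not reported here, though counts over lists include them.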

Additional observations from a re-analysis of the deposited data

Results flagged for a closer look

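In 48 of 304 sets of 5 libraries, 1 library lay far from the other 4 by Dixon's ratio on log2(CPM + 1). The nominal rate of this ratio, about 1 in 20, is for normally distributed values. It does not hold where 4 libraries are at 0, since any count in the other library is then marked. The number of marked sets is therefore not compared with that rate. Values are CPM unless given otherwise. CD200+ library 5 stood low 12 times: Acta2 277, Bglap 26.2, Bmpr2 58.8, Ibsp 49.7, Iqsec3 53.0, Lepr 57.8, Prdx2 241 and Tmem14c 19.3, with Dmp1, Mkrn1, Sp7 and Wif1 at 0. CD200+ library 6 stood apart with Ccl19 high at 150.4, and with Fech 21.5, Il6st 19.1, Notch3 47.3 and Mki67 0 all low. CD200+ library 7 was low in Spp1 at 17438 and alone or nearly alone in Acp5 at 4.06, Csf1r at 0.0752, Ptprc at 0.0752 and Rhag at 0.902. CD200+ library 8 alone held Car1, at 0.136. CD200+ library 9 alone held Alas2 at 10.2 and Cldn13 at 0.126, and its haemoglobin share was 1.07% of gene counts.

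Among CD105+ libraries, library 10 was high in Bmp4 at 1.55, Car1 at 7287, Cenpa at 818, Mad2l1 at 484 and Ndufa9 at 433. Library 11 was high in Cd74 at 924, Cd79a at 12.1, Cdh2 at 0.896, Csf1r at 64.0, Igf2 at 4.60 and Pf4 at 109.6. Library 12 was high in Cd200 at 11.4, Ces2g at 461, Col2a1 at 4275, Il6 at 0.572 and Sp7 at 0.763. Library 13 was high in Alpl at 0.739, Kitl at 1.48 and Notch3 at 4.83, and low in E2f4 at 64.6. Library 14 held Dmp1 at 0.221 and Myod1 at 0.147.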

How the results depend on the processing

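No paired analysis was possible because library numbers 1 to 14 are unique and no label ties CD105+ to CD200+ libraries. Each group had 5 libraries of 200 to 500 cells each, and the fit recovered few small changes in the simulated counts. Of 119 called genes named, 96 kept their call in all 10 fits that left out a library, and 23 lost it in 1 or more. Left-out libraries gave 1090 to 1713 genes called, 476 to 669 higher and 610 to 1062 lower, and 2636 to 3339 without overlap. Spike-in library sizes gave 570 called (412 higher, 158 lower) and limma voom 4525 (2061, 2464). DESeq2 gave 3565 (1354, 2211) and the fit with no filter 645 lower, both run on 25864 genes. Without libraries 2, 5 and 6, 4779 genes did not overlap. The group differences in haemoglobin (7.84 points) and mitochondrial share (-3.99 points) then did not pass (exact permutation test, adjusted p = 0.0893), with fewer CD200+ arthritic libraries compared. For a given gene, leaving out libraries can only remove overlap, so a higher count of genes without overlap is partly built in. The cause of the other shifts was not tested.

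The difference in genes detected (896.8) ran from -169.15 to 1939.85 with a library left out and was -1651.4 without libraries 2, 5 and 6; that in the top 50 share (-1.04 points) ran from -3.92 to 0.501. Signs were compared for the genes named here only. Spike-in sizes reversed Itgav (1.08), Thy1 (1.34), Col2a1 (-0.18), Pdgfra (1.31), Itga2b (1.75) and mt-Cytb (0.059), the last the 1 that reversed among the 119 called genes named. Leaving out libraries 2, 5 and 6 reversed Itgav (0.13), Thy1 (0.35), Col2a1 (-0.26) and Itga2b (0.88). Limma voom reversed Thy1 (0.72), Col2a1 (-10.96), Itga2b (0.69), Pf4 (-2.22) and Cd74 (-1.07). With single libraries left out, these uncalled estimates changed sign, with ranges of -1.13 to 0.76 for Thy1, -16.04 to 3.61 for Col2a1 (lowest without library 12), -0.70 to 0.12 for Pdgfra, -2.34 to 1.26 for Itga2b, and, lowest without library 11, -0.55 to 2.19 for S100a8, -7.27 to 2.24 for Pf4, -1.68 to 6.02 for Lyz2 and -6.68 to 7.74 for Cd74.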
